A study of Rattus norvegicus with 9 samples.

Results

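The mitosis, kinetochore and cytokinesis genes described here are 60 listed genes of the machinery that divides a cell, matched by symbol to the rows of a deposited table of 34267 genes. Of the 60, 59 were found, each in 1 row, and all 59 passed the filter on low values (at least 1 FPKM in at least 3 libraries, passed by 13059 genes in all). Ccnb2 was not analysed here. FPKM are fragments counted on a gene, scaled to its length and to the depth of the library. The samples were 9 libraries of polyadenylated RNA from wild type primary cultures of rat cartilage progenitor cells, taken from condylar cartilage. The 3 groups of 3 libraries were untreated cells grown to passage 3 (P3, the control), cells grown on to passage 9 (P9, the replicative senescence model) and passage 3 cells put under flow fluid shear stress (FFSS, the mechanical degeneration model, in which moving liquid drags on the cell layer). The animals' age and strain, the duration and strength of the flow, and whether each library stands for its own culture or animal are not given in the sources used here. Every p therefore reflects the spread among these 9 libraries, which may be technical. The question was which changes the models have in common. Values in a sentence follow replicates 1, 2 and 3 of a group.

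A dividing cell builds its mitotic proteins late in the cycle. FoxM1, B-Myb and the MuvB complex switch their genes on in G2, cyclin B with Cdk1 drives entry into mitosis, the kinetochores attach chromosomes to the spindle under the watch of the spindle checkpoint, and the anaphase-promoting complex with Cdc20 then lets the sister chromatids part before the central spindle and the contractile ring split the cell. Resting and senescent cells keep most of these genes off, so their summed RNA is commonly read as a measure of how much a culture is dividing. In bulk RNA, fewer cells in division and less of each transcript per cell cannot be told apart.

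Between 13264930 and 15323790 fragments per library lay on genes. For the mitotic genes the FFSS libraries were graded. Replicate 1 was the highest of the 3 for 58 of the 59 genes, and replicate 2 the lowest for 57. Counts are therefore also given with single libraries left out. The share of mitochondrial genes was 2.12 to 2.32% for P3, 2.31 to 2.56% for P9 and 2.96 to 3.75% for FFSS. The cells' own chondrogenic markers differed between the groups. Sox9 measured 4.06 to 4.79 FPKM across P3, 5.01 to 7.997 across P9 and 9.82 to 15.3 across FFSS. Acan measured 121.6 to 134.7 FPKM across P3, 498.9 to 608.9 across P9 and 29.3 to 48.2 across FFSS. Col2a1, the main cartilage collagen, was at 0.703 to 1.06 FPKM across P3, 0 to 0.191 across P9 and 0.0297 to 0.378 across FFSS, and Col9a1 was listed at 0 in all P3 libraries. Leukocyte markers (8 of 9 found) summed to 9.60 to 11.1 FPKM across P3, 5.14 to 5.66 across P9 and 42.2 to 105.4 across FFSS. Most of the FFSS sum was Cd14, at 39.9, 94.3 and 67.5 FPKM. Of the other myeloid markers of the list, Lyz2 was at 0.0562, 5.37 and 2.94 FPKM in FFSS against 0.171 to 0.305 across P3. Csf1r was at 0.0840, 3.17 and 2.08 against 0.0182 to 0.187. Both were above P3 in FFSS replicates 2 and 3 but not in replicate 1. Cd68 was at 2.16, 2.60 and 2.12 against 0.533 to 0.874, and Adgre1 was listed at 0 in all FFSS libraries. Cd14, Lyz2, Csf1r and Cd68 were all highest in FFSS replicate 2, the library with the lowest sum of mitotic genes. Ptprc, which defines leukocytes, was at 0, 0.0272 and 0.0400 FPKM in FFSS, and Cd3e was listed at 0 in every library. Glial markers (5 of 5 found) summed to 15.2 to 28.8 FPKM across P3, 18.1 to 26.6 across P9 and 65.02 to 89.95 across FFSS, where S100b made up most and Sox10, which defines glia, was at 0 to 0.0444 FPKM. Synovial and tendon fibroblast markers (5 of 5 found) summed to 1139 to 1360 FPKM across P3, 63.6 to 230.8 across P9 and 1706 to 2524 across FFSS. Fmod made up most of the P3 and FFSS sums, at 982.8 to 1249 FPKM across P3 and 1560 to 2289 across FFSS. Between these groups Scx, Mkx and Prg4 overlapped, and Tnmd was higher in FFSS (7.26 to 12.5 FPKM against 0.652 to 2.68). Skeletal muscle markers (6 of 6 found) summed to 2.76 to 16.7 FPKM across P3, 35.8 to 43.4 across P9 and 0.640 to 2.03 across FFSS. Most of the P9 sum was Acta1, at 42.5, 35.1 and 38.6 FPKM. In P9, Myog was listed at 0, and Myod1, Ckm, Des and Myh3 were each at most 0.80 FPKM. Endothelial, epithelial and erythroid markers summed to at most 2.13 FPKM in any library. The part of these differences in the results on mitotic genes was not tested.

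Under shear stress, 54 of the 59 mitotic genes fell and none rose. Over all tested genes, the background, 10.4% fell and 11.4% rose. At passage 9 none of the 59 passed the same test (background 5.39% higher and 4.44% lower). Fitted without the FFSS libraries, that test called 14 of the 59 higher at passage 9 (background 11.1%). The summed level of the 59 genes was 764.1, 838.1 and 720.9 FPKM in the P3 libraries, 937.9, 920.5 and 956.6 FPKM in P9 and 389.9, 111.003 and 203.7 FPKM in FFSS. These groups did not overlap, as each P9 library lay above every P3 library, and each FFSS library lay below every P3 library. The mean sum was 774.4 ± 59.3 FPKM in P3, 938.3 ± 18.1 in P9 and 234.8 ± 142 in FFSS (SD, n = 3), so FFSS stood at 30.3% of P3 and P9 at 121.2%. Behind the sums were 32291 to 35402 fragments per P3 library, 38433 to 45163 per P9 library and 17058, 4842 and 9029 for the FFSS libraries.

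**Figure D1:**
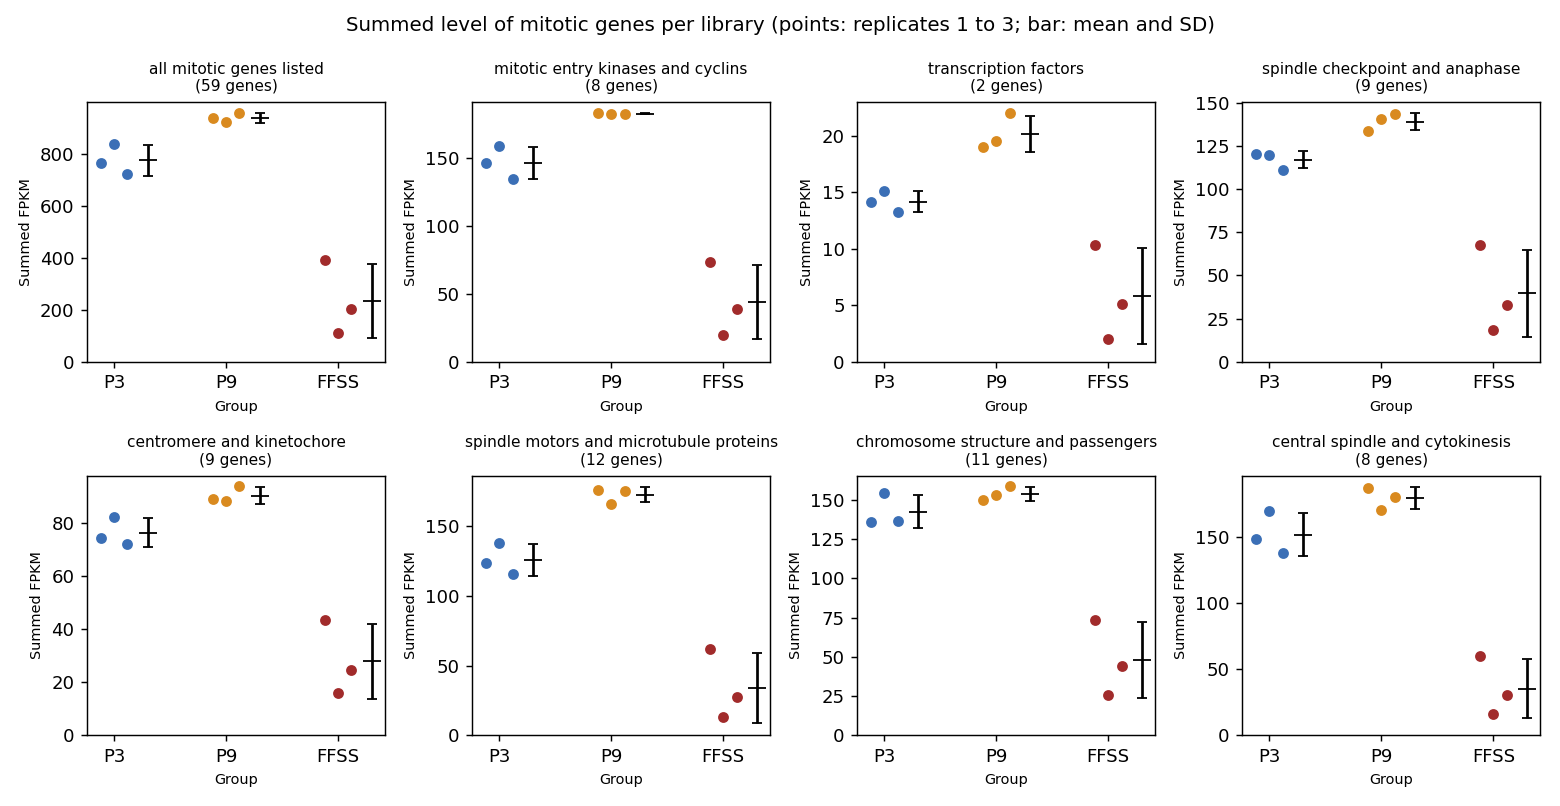
Summed FPKM per library of the 59 mitotic genes and of each of the 7 role groups (y axis, from 0) by group (x axis); points are replicates 1 to 3 and the bar is the mean with its SD. In the panel of all 59 genes the P3 libraries sit between 720.9 and 838.1 FPKM, the P9 libraries between 920.5 and 956.6 and the FFSS libraries between 111.003 and 389.9.

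Each gene was tested with limma on log2(FPKM + 1) over all 9 libraries, with Benjamini-Hochberg adjustment over the 13059 genes and a threshold of 0.05. The fit takes a single spread per gene from the libraries of all groups. The SE and p of P9 against P3 therefore also carry the scatter among the FFSS libraries. Those of FFSS against P3 in turn carry the scatter among the P9 libraries, which was smaller for the summed level (SD 18.1 FPKM, against 142 in FFSS). In FFSS against P3, the background of genes called lower was 10.4% and of genes called higher 11.4%. The same background applies to the counts of each role group given below. The 59 log2 fold changes ran from -2.48 to -0.28 with a median of -1.62, beside a median of -0.01 over all tested genes. On this scale a fall is understated where FFSS values are near 1 FPKM, and the median was -2.14 with a pseudocount of 0.1 and -2.21 with voom on recovered fragments. It was -2.05 without FFSS replicate 1 and -1.24 without FFSS replicate 2. All 3 FFSS libraries lay below all 3 P3 libraries for 58 of the 59 genes (background 22.3%), Bub3 being the exception. In mean FPKM, 54 genes stood at under 50% of P3 in FFSS and 22 at under 25%, and the share of all tested genes at these levels was not counted. A log2 fold change of -1 or lower was found for 51 of the 59 genes and for 495 of all 13059 tested genes. The 5 genes that did not pass were Mybl2, Cenpk, Spc24, Bub3 and Cdc25c, and at an unadjusted p under 0.05 all 59 were lower (background 18.9% lower and 18.5% higher). Kif18a passed at the edge of the threshold (adjusted p = 0.04998). Replicate 1 was the highest FFSS library for 58 of the 59 genes, so leaving it out lowers their FFSS means. Without FFSS replicate 1, 2 or 3, in that order, 58, 49 and 39 genes were called lower. Without P3 replicate 2, 38 were, and the 16 that lost the call were Aurkb, Birc5, Ccna2, Cdca3, Cdk1, Kif15, Kif18a, Kif18b, Kif22, Melk, Ncaph, Nusap1, Pttg1, Spc25, Top2a and Ttk. With only the P3 and FFSS libraries fitted, 41 were called lower and 13 lost the call, Cdk1, Ccna2, Aurkb and Ttk among them.

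In P9 against P3, limma called 0 of 59 genes (background 5.39% higher and 4.44% lower), and at an unadjusted p under 0.05 it gave 3 higher, Ckap2, Spc24 and Kif14, and 0 lower (background 12.1% and 11.1%). The voom test on recovered fragments also called 0, with 4 higher at an unadjusted p under 0.05. Of the 59 log2 fold changes, 51 were above 0, with a range of -0.27 to 0.69 and a median of 0.24 beside -0.0026 over all tested genes. Of all 13059 tested genes, 6480 were above 0. All 3 P9 libraries lay above all 3 P3 libraries for 30 genes (background 20.9%) and below them for 1 gene, Smc4 (background 19.1%). Fitted on the P3 and P9 libraries alone, with 12405 genes tested, the same test called 14 of 59 higher and 0 lower (background 11.1% higher): Ccna2, Cdk1, Aurka, Foxm1, Mybl2, Espl1, Cdca3, Spc24, Kif2c, Tpx2, Dlgap5, Ckap2, Ncaph and Kif20a. Without FFSS replicate 1 alone, 4 were called higher (background 9.53%), namely Aurka, Spc24, Dlgap5 and Ckap2. Both comparisons use the same P3 libraries, so they are not independent of each other.

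The contrast of P9 with FFSS leaves the P3 means out and is the test of the difference between the 2 effects. In it, 58 of 59 genes were higher in P9 and none lower (background 16.1% higher and 15.3% lower), with log2 fold changes of 0.36 to 2.75 and a median of 1.85. Bub3 was the gene that did not pass, and it passed without FFSS replicate 1 (59 of 59). Without FFSS replicate 2 or 3, in that order, 56 and 53 of 59 passed. All P9 libraries lay above all FFSS libraries for 57 of 59 genes (background 22.2%), the exceptions being Bub3 and Cenpk.

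**Figure D2:**
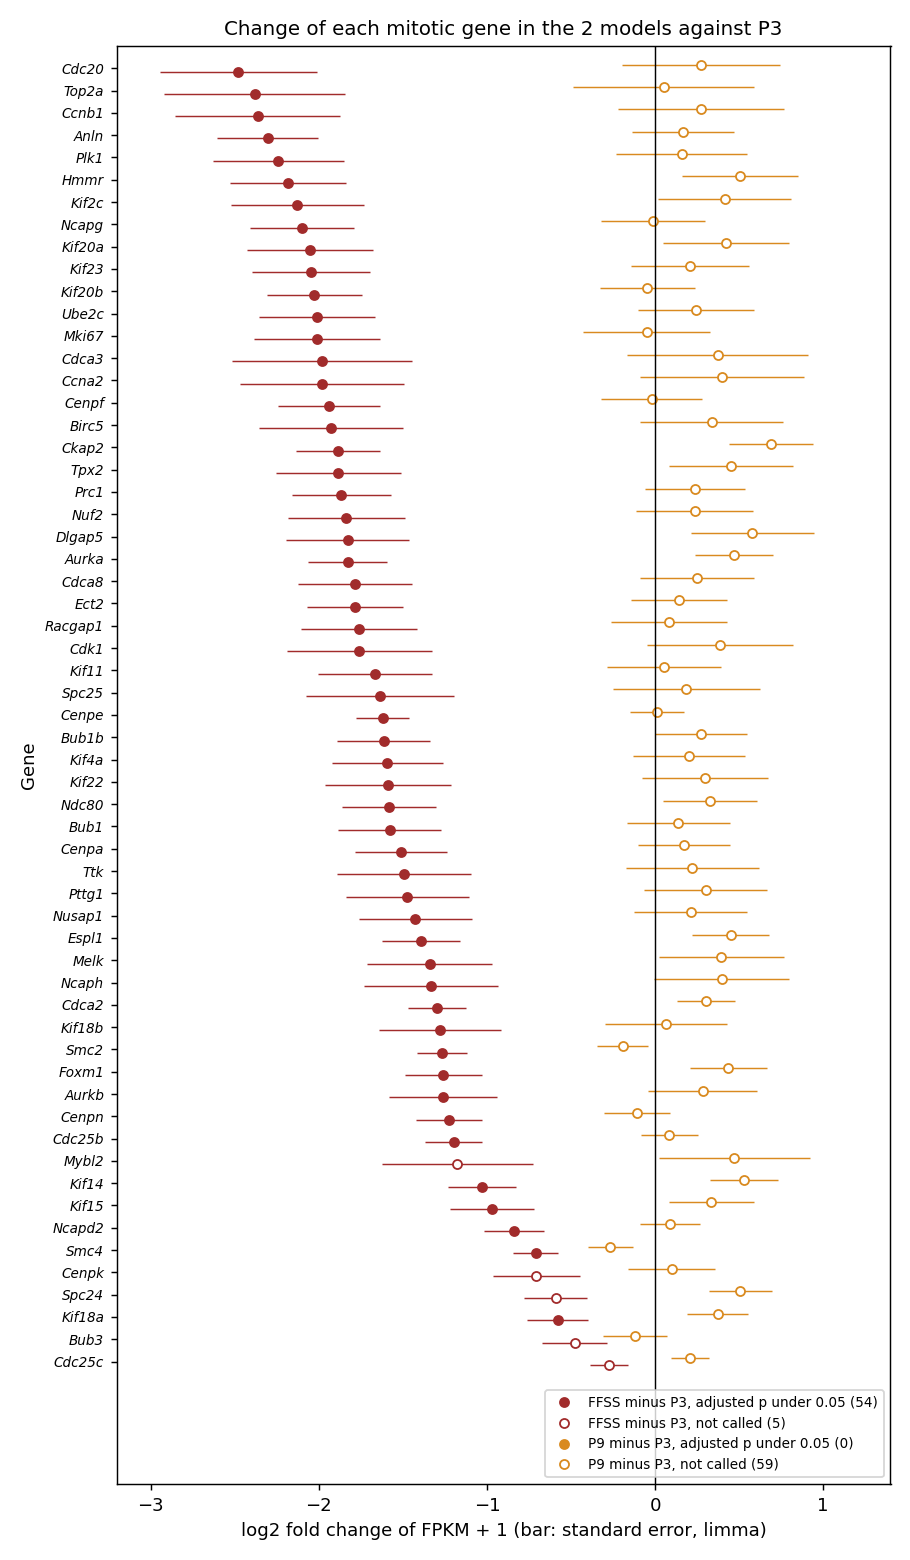
Log2 fold change of FPKM + 1 (x axis, with the limma standard error) for each of the 59 mitotic genes (y axis, ordered by the change in FFSS), in FFSS against P3 (red) and P9 against P3 (orange); filled points have an adjusted p under 0.05. The FFSS points run from -2.48 to -0.28 with 54 filled, and the P9 points lie between -0.27 and 0.69 with none filled.

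**Figure D3:**
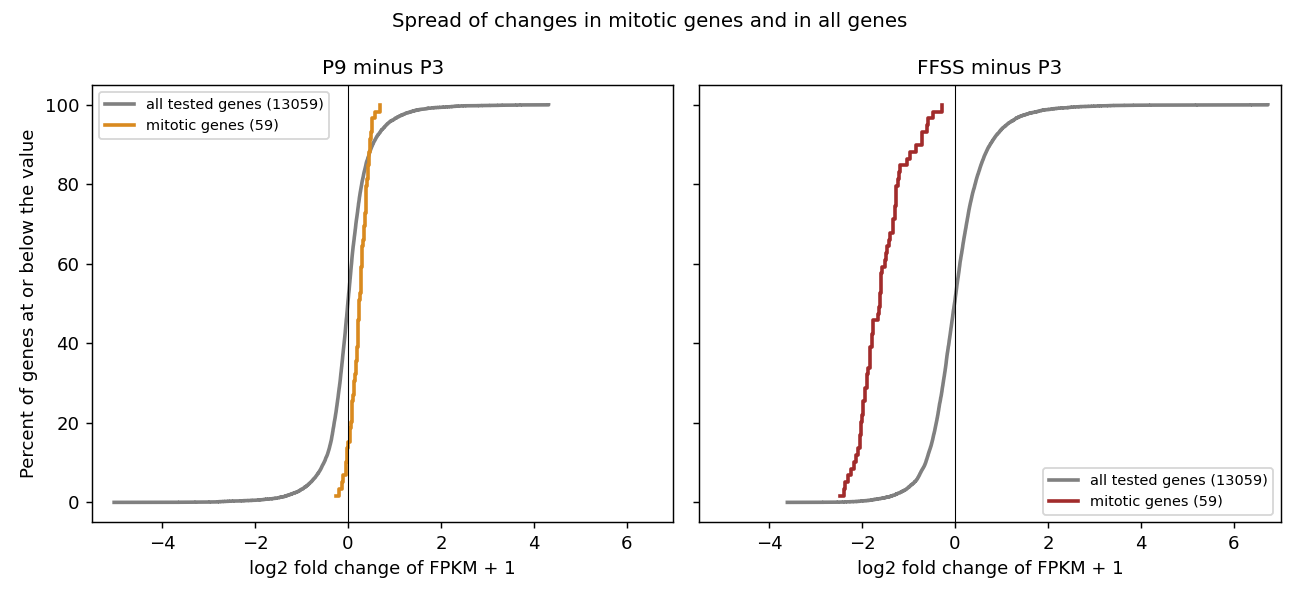
Percent of genes (y axis) at or below each log2 fold change (x axis) for the 59 mitotic genes (coloured) and all 13059 tested genes (grey), in P9 against P3 and in FFSS against P3. In FFSS all 59 mitotic genes lie below 0, with a median of -1.62 against -0.01 for all genes; in P9 51 of 59 lie above 0, with a median of 0.24.

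The FFSS libraries differed from one another in how far these genes fell. As a share of the P3 mean, the median of the 59 genes was 46.8% in FFSS replicate 1, 8.81% in replicate 2 and 24.5% in replicate 3. Replicate 1 held the highest FFSS value for 58 of 59 genes and replicate 2 the lowest for 57 of 59. Among all 1362 genes called lower in FFSS, the same libraries were highest for 66.6% and lowest for 62.5%. In replicate 2, 31 of the 59 genes were under 1 FPKM, against 2 in replicate 1, 10 in replicate 3 and none in any P3 or P9 library. The fewest fragments behind a value were 4, for Kif14 in replicate 2. Even in replicate 1, 58 of 59 genes were below every P3 library. The P9 libraries were alike, with medians of 120.8, 119.6 and 125.1% of the P3 mean.

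**Figure D4:**
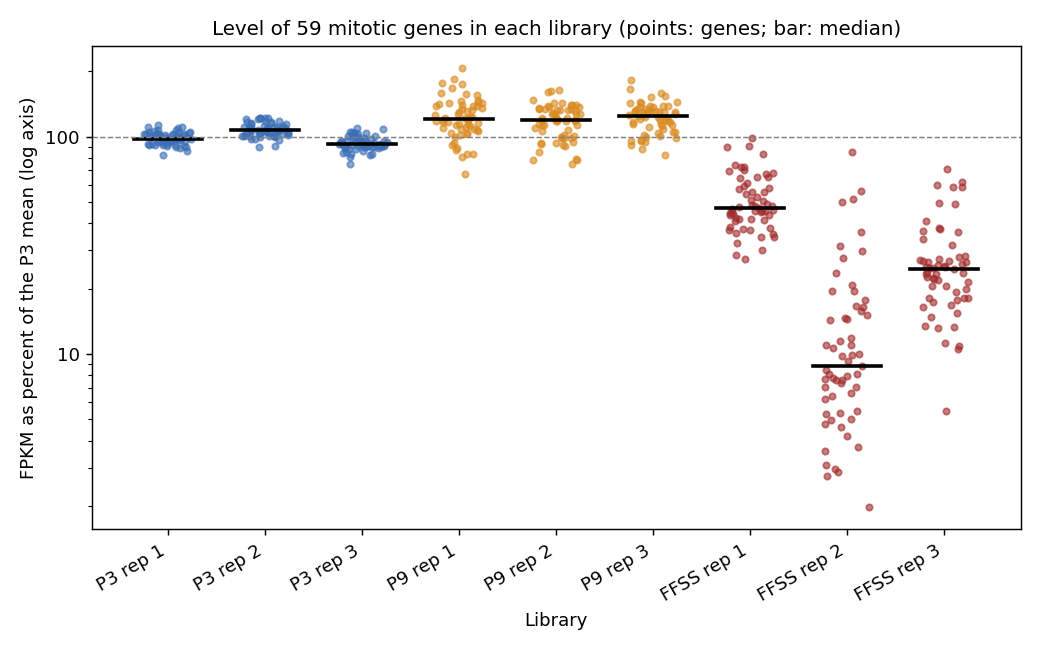
FPKM of each of the 59 mitotic genes as a percent of its P3 mean (y axis, log scale) in each library (x axis); points are genes and bars are medians. The medians are 46.8, 8.81 and 24.5% in FFSS replicates 1 to 3 and 119.6 to 125.1% in the P9 libraries.

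The promoters of the listed genes are shown as background. The RefSeq table of the GRCr8 build gave 52 promoters for 51 of the 59 genes, from 250 bases before the start to 50 after it. They were searched on both strands for CCAAT, the box bound by the factor NF-Y, and for TTTGAA, the usual form of the cell cycle genes homology region (CHR) at which MuvB binds. Each motif was counted by itself, and a match of one may overlap a match of the other. CCAAT was in 38 of 52 promoters (73.1%) and in 37.5% of all 33469 promoters of the table, TTTGAA in 32 (61.5%) and in 18.3%, and both in 27 (51.9%) and in 7.41%. A match describes these letters and is no evidence of binding. Both motifs are textbook elements of the promoters of G2 and M genes, and the list holds such genes. The raised shares could thus be foreseen from the choice of list and are no result about shear or passage. The 250 bases before the start are printed for Cdk1, Cdc20 and Top2a, which fell in FFSS and hold both motifs. They are also printed for Ccnb1, which holds only CCAAT in this stretch, and for Bub3, which did not pass in any contrast. Capitals mark CCAAT or TTTGAA on either strand (ATTGG and TTCAAA when read on the printed strand).
Cdk1 (chr20:19265043-19265292, plus strand, GRCr8): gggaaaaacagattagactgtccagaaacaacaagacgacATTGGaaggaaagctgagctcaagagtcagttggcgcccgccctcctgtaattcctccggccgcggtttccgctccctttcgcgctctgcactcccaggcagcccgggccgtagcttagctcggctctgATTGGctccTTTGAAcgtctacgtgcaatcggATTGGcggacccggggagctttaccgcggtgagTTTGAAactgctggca
Cdc20 (chr5:137255800-137256049, minus strand, GRCr8): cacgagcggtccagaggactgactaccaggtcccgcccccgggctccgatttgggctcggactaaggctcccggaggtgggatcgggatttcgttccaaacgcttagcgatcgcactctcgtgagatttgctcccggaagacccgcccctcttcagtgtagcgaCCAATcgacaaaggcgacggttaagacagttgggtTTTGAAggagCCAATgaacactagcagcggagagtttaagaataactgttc
Top2a (chr10:84473094-84473343, minus strand, GRCr8): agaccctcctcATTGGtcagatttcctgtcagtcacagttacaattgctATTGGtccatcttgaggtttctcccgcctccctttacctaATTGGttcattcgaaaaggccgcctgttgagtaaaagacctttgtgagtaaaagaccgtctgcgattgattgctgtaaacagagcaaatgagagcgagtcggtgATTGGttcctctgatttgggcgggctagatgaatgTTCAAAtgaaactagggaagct
Ccnb1 (chr2:33655226-33655475, minus strand, GRCr8): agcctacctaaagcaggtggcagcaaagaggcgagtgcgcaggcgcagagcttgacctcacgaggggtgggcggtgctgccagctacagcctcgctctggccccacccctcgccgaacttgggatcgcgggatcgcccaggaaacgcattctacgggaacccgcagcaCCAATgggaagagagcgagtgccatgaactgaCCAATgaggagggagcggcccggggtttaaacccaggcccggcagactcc
Bub3 (chr1:195760282-195760531, plus strand, GRCr8): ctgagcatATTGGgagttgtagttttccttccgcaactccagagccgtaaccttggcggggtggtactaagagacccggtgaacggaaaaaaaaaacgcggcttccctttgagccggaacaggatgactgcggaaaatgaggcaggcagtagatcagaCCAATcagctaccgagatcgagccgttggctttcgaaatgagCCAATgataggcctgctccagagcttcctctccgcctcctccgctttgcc
In these bases Cdk1 carries CCAAT at 3 places and TTTGAA at 2, and Bub3 carries CCAAT at 3 places and no TTTGAA. Other genes differ from these examples. Cdc25c, with the smallest log2 fold change in FFSS (-0.28), carries CCAAT at 4 places and TTTGAA at 1. Kif2c (-2.13) and Aurka (-1.83) carry neither, and Anln (-2.30) carries TTTGAA at 2 places and no CCAAT. Whether the motifs go with the size of the fall was not tested. With the 50 bases after the start left out, TTTGAA was in 46.2% of the 52 promoters and in 16.2% of all.

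The genes of mitotic entry came down in FFSS, 7 of 8 below the threshold, and stood higher in P9 by mean FPKM in all 8, with none called. Cdk1, the kinase that starts mitosis (Rnor_6.0 chromosome 20, 20576377 to 20591549, plus strand), had the highest mean level of the 59 genes over all libraries, at 44.6, 46.98 and 39.9 FPKM in P3, 60.996, 58.5 and 53.2 in P9 and 26.9, 5.21 and 12.4 in FFSS. All P9 libraries were above all P3 libraries, and all FFSS libraries below them. Its log2 fold change was -1.76 ± 0.43 (SE) in FFSS (adjusted p = 0.0216) and 0.39 ± 0.43 in P9 (adjusted p = 0.658). Ccnb1, cyclin B1, the partner that activates Cdk1 (Rnor_6.0 chromosome 2, 30783915 to 30791221, minus strand), was measured at 29.2, 30.98 and 25.8 FPKM in P3, 37.1, 34.3 and 32.9 in P9 and 10.7, 1.197 and 6.41 in FFSS. Its change in FFSS was -2.36 ± 0.49 on the log2 scale (adjusted p = 0.0119), and its P9 libraries were again the highest. Ccna2, cyclin A2, which acts in S phase and G2, was at 16.8, 20.1 and 17.5 FPKM in P3, 22.3, 25.3 and 24.95 in P9 and 9.14, 0.901 and 4.898 in FFSS. Plk1, the polo-like kinase of mitotic entry and spindle assembly, was at 23.5, 25.1 and 20.5 FPKM in P3, 20.5, 27.5 and 30.1 in P9 and 8.61, 1.63 and 4.18 in FFSS. For Plk1 the P9 and P3 libraries overlapped, and its change in FFSS was -2.24 (adjusted p = 0.00642). Aurka, the Aurora kinase of the spindle poles, was at 8.72, 10.9 and 8.62 FPKM in P3, 14.6, 12.02 and 13.5 in P9 and 3.35, 1.54 and 1.26 in FFSS. Melk, a kinase of proliferating cells, was at 3.77, 4.19 and 4.27 FPKM in P3, 7.12, 4.96 and 5.09 in P9 and 2.78, 0.121 and 0.8998 in FFSS. For Ccna2, Aurka and Melk no library of one group lay among those of another, and all 3 fell in FFSS (adjusted p = 0.022, 0.0019 and 0.0337). The call of Cdk1, Ccna2 and Melk in FFSS was lost without any 1 of the P3 libraries (highest adjusted p = 0.0717, 0.074 and 0.0967).

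The phosphatases that activate Cdk1 moved less. Cdc25b stood at 14.01, 14.8 and 12.6 FPKM in P3, 14.1, 13.6 and 16.4 in P9 and 7.25, 4.32 and 5.06 in FFSS, a log2 fold change of -1.20 ± 0.17 in FFSS (adjusted p = 0.0029). Cdc25c was at 6.01, 5.74 and 5.34 FPKM in P3, 6.68, 6.69 and 6.82 in P9 and 4.72, 4.83 and 4.06 in FFSS. FFSS replicate 2, the lowest library for nearly all other genes of the list, was the highest FFSS library for Cdc25c, and for no other of the 59. Its change in FFSS was -0.28 ± 0.11 (adjusted p = 0.112), the smallest of the 59, although its groups did not overlap.

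Of the transcription factors of the list, Foxm1 fell in FFSS and Mybl2 did not pass; for both, all P9 libraries lay above and all FFSS libraries below the P3 libraries. Foxm1, which switches on the G2 and M genes, stood at 6.73, 7.74 and 6.42 FPKM in P3, 9.96, 9.24 and 10.1 in P9 and 3.81, 1.36 and 2.203 in FFSS, with log2 fold changes of -1.26 ± 0.23 in FFSS (adjusted p = 0.00731) and 0.44 ± 0.23 in P9 (adjusted p = 0.304). Mybl2, the gene of B-Myb, was at 7.38, 7.37 and 6.88 FPKM in P3, 9.09, 10.3 and 11.9 in P9 and 6.54, 0.611 and 2.94 in FFSS. FFSS replicate 1 nearly reached the P3 values, and the change of -1.18 ± 0.45 did not pass (adjusted p = 0.0921). It passed without that library (adjusted p = 0.00422).

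In the spindle checkpoint and the step to anaphase, 8 of 9 genes fell in FFSS. Cdc20, the activator of the anaphase-promoting complex, had the largest fall of all 59 genes on the log2(FPKM + 1) scale, at 28.3, 27.4 and 29.5 FPKM in P3, 29.5, 37.7 and 36.9 in P9 and 10.8, 1.32 and 4.39 in FFSS. On the log2 scale the change was -2.48 ± 0.47 in FFSS (adjusted p = 0.00839) and 0.27 ± 0.47 in P9 (adjusted p = 0.789), where the groups overlapped. In mean FPKM, Cdc20 stood at 19.3% of P3 in FFSS, and 6 genes stood lower: Kif20b (14.0%), Ncapg (14.8%), Kif14 (15.1%), Cenpf (17.8%), Kif2c (18.0%) and Hmmr (18.9%). Ube2c, the ubiquitin-conjugating enzyme of that complex, stood at 11.4, 11.97 and 9.08 FPKM in P3, 11.5, 12.8 and 14.5 in P9 and 4.503, 0.853 and 1.42 in FFSS. Pttg1, securin, which holds separase in check, was at 16.2, 12.9 and 13.8 FPKM in P3, 17.3, 17.2 and 18.8 in P9 and 9.67, 2.104 and 3.996 in FFSS. Espl1, separase itself, which cuts cohesin, stood at 3.36, 3.82 and 4.104 FPKM in P3, 5.24, 6.05 and 5.196 in P9 and 1.55, 0.291 and 0.807 in FFSS, and no library of one group fell among those of another. Cdca3, which promotes mitotic entry by marking Wee1 for destruction, was at 22.3, 20.5 and 18.3 FPKM in P3, 27.2, 26.1 and 26.3 in P9 and 11.8, 0.966 and 5.23 in FFSS. All 4 fell in FFSS (adjusted p = 0.006 for Ube2c, 0.0224 for Pttg1, 0.00527 for Espl1 and 0.0309 for Cdca3), and in P9 only Ube2c overlapped P3.

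The checkpoint kinases fell too. Ttk, also called Mps1, which starts checkpoint signalling at kinetochores, stood at 4.91, 6.05 and 4.81 FPKM in P3, 8.78, 4.83 and 5.73 in P9 and 3.01, 0.162 and 1.33 in FFSS. Bub1 was at 7.61, 9.43 and 7.22 FPKM in P3, 10.7, 7.33 and 9.12 in P9 and 3.88, 0.886 and 2.01 in FFSS, a change of -1.58 in FFSS (adjusted p = 0.00929). Bub1b, BubR1, a part of the complex that inhibits Cdc20, stood at 6.11, 6.65 and 6.51 FPKM in P3, 7.38, 8.84 and 7.73 in P9 and 2.72, 0.521 and 1.52 in FFSS. For Ttk and Bub1 the P9 libraries overlapped P3, and for Bub1b they lay above. Bub3, which carries Bub1 and BubR1 to the kinetochore, did not pass, at 20.5, 20.96 and 17.9 FPKM in P3, 16.02, 19.5 and 18.997 in P9 and 19.5, 11.1 and 12.3 in FFSS. FFSS replicate 1 lay among the P3 libraries while replicates 2 and 3 lay below, and the change was -0.48 ± 0.19 (adjusted p = 0.105). Without FFSS replicate 1 it was -0.71 (adjusted p = 0.00316).

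**Figure D5:**
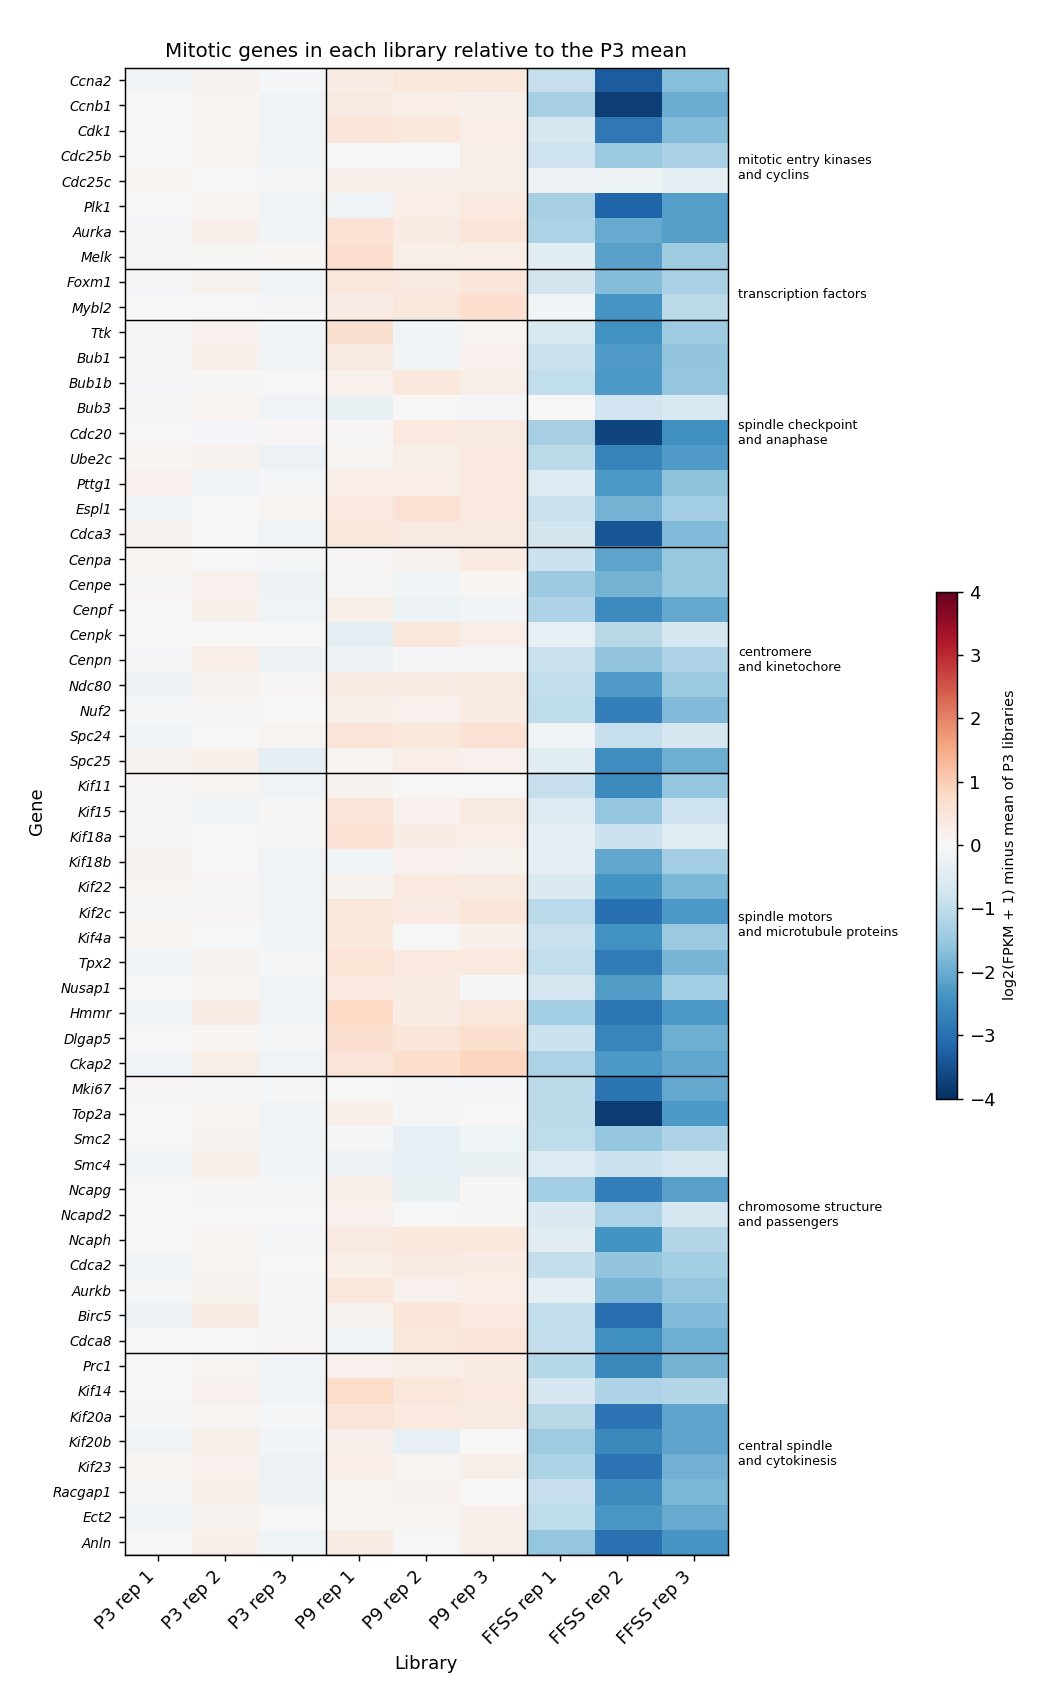
Level of each of the 59 mitotic genes (rows, by role) in each library (columns) as log2(FPKM + 1) minus the mean of the P3 libraries; blue is lower and red higher. FFSS replicate 2 is the lowest of the FFSS libraries for 57 of the 59 genes and FFSS replicate 1 the closest of the FFSS libraries to P3 for 58.

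Of the centromere and kinetochore genes, 7 of 9 fell in FFSS. Cenpa, the histone variant that marks centromeres, was at 5.04, 4.55 and 4.44 FPKM in P3, 4.80005, 5.31 and 6.11 in P9 and 2.096, 0.2996 and 0.961 in FFSS. Ndc80 and Nuf2, the arm of the Ndc80 complex that grips the microtubule, stood at 6.35, 8.17 and 7.75 FPKM in P3, 9.43, 9.45 and 9.68 in P9 and 3.24, 0.741 and 1.98 in FFSS for Ndc80. For Nuf2 the values were 11.5, 12.5 and 12.2 FPKM in P3, 14.3, 13.7 and 15.3 in P9 and 5.52, 0.981 and 2.81 in FFSS. All P9 libraries were above all P3 libraries for both, with log2 fold changes in FFSS of -1.58 and -1.84 (adjusted p = 0.0065 and 0.00845). The other arm of that complex, which faces the chromosome, is made of Spc24 and Spc25. Spc25 was at 11.03, 11.5 and 7.52 FPKM in P3, 10.7, 12.1 and 11.2 in P9 and 6.94, 0.931 and 1.77 in FFSS. Spc24 stood at 15.8, 17.4 and 18.95 FPKM in P3, 25.3, 23.4 and 26.5 in P9 and 15.5, 8.73 and 10.2 in FFSS, where FFSS replicate 1 was just under the lowest P3 library. Within this pair, Spc25 fell by 1.64 on the log2 scale (adjusted p = 0.0297), and Spc24 had a change of -0.59 ± 0.19 that did not pass (adjusted p = 0.0507), though the difference between them was not tested. In P9 the change of Spc24 was 0.51 ± 0.19 (unadjusted p = 0.0232, adjusted p = 0.135, limma).

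Cenpe, the kinesin that carries chromosomes to the spindle equator, had the lowest adjusted p of the 59 in FFSS, with 8.2001, 8.98 and 6.76 FPKM in P3, 8.29, 7.37 and 8.39 in P9 and 2.27, 1.41 and 2.11 in FFSS. Its change was -1.62 ± 0.16 (adjusted p = 0.000651) against 0.01 in P9, and here the FFSS libraries lay close together. Cenpf, a large protein of the outer kinetochore, was at 6.96, 8.298 and 6.13 FPKM in P3, 8.504, 6.04 and 6.54 in P9 and 2.46, 0.382 and 0.962 in FFSS. Cenpn, which reads the Cenpa nucleosome, stood at 6.51, 8.23 and 5.59 FPKM in P3, 5.62, 6.44 and 6.43 in P9 and 3.16, 1.597 and 2.299 in FFSS. Cenpk, another part of the inner kinetochore, was at 2.94, 2.78 and 2.85 FPKM in P3, 1.92, 4.24 and 3.62 in P9 and 2.08, 0.795 and 1.39 in FFSS, with a change of -0.71 ± 0.26 in FFSS that did not pass (adjusted p = 0.0813). Its P9 libraries lay on both sides of P3, and P9 replicate 1 fell within the FFSS range. Cenpn and Cenpk overlap other annotated genes on the opposite strand (Cmc2 and Ppwd1), and the strand setting of the counting is not given, so their fragments may be shared.

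Of the spindle motors and microtubule proteins, 12 of 12 fell in FFSS, and in P9 all 12 had a fold change above 0, with none called. Kif11, Eg5, which pushes the spindle poles apart, stood at 8.97, 9.51 and 7.79 FPKM in P3, 9.67, 8.76 and 8.87 in P9 and 4.18, 0.667 and 2.33 in FFSS. Kif15, its partner in keeping the spindle bipolar, was at 2.404, 2.08 and 2.41 FPKM in P3, 3.61, 2.71 and 3.18 in P9 and 1.27, 0.115 and 0.872 in FFSS. Both fell in FFSS (log2 fold changes -1.67 and -0.97, adjusted p = 0.0109 and 0.0259), and in P9 only Kif15 lay above P3 in all libraries. Kif18a, which shortens kinetochore microtubules, had the lowest level of this set in P3, at 1.27, 1.33 and 1.37 FPKM in P3, 2.43, 1.86 and 1.77 in P9 and 0.783, 0.275 and 0.654 in FFSS. Its call in FFSS (log2 fold change -0.58) was lost in 14 of 17 other settings, and a log2 fold change of at least 1 would also remove it. Kif18b, which acts on astral microtubules, stood at 6.77, 6.15 and 5.36 FPKM in P3, 5.57, 6.93 and 6.78 in P9 and 4.53, 0.669 and 1.67 in FFSS. Kif22, the chromokinesin Kid, was at 21.3, 20.5 and 17.7 FPKM in P3, 22.1, 26.03 and 25.7 in P9 and 13.0003, 3.001 and 4.86 in FFSS. Kif2c, MCAK, which takes microtubules apart at the centromere, stood at 8.69, 8.701 and 7.68 FPKM in P3, 11.8, 10.6 and 11.99 in P9 and 3.46, 0.166 and 0.881 in FFSS. FFSS replicate 2 held 1.98% of the P3 mean of Kif2c, the lowest share of any gene in any library. Kif4a, a chromokinesin of the central spindle, was at 6.46, 6.18 and 5.55 FPKM in P3, 8.44, 5.97 and 7.098 in P9 and 2.84, 0.3202 and 1.53 in FFSS. In FFSS the log2 fold changes were -1.28, -1.59, -2.13 and -1.59 for Kif18b, Kif22, Kif2c and Kif4a (adjusted p = 0.0356, 0.0188, 0.00793 and 0.0119).

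Tpx2, which activates Aurka and nucleates spindle microtubules, stood at 17.6, 21.4 and 18.6 FPKM in P3, 28.4, 25.7 and 25.7 in P9 and 9.298, 1.88 and 4.504 in FFSS. Nusap1, a bundling protein of the spindle, was at 5.33, 5.55 and 4.83 FPKM in P3, 7.11, 6.66 and 5.04 in P9 and 2.91, 0.326 and 1.41 in FFSS. Hmmr, a spindle and hyaluronan-binding protein, stood at 13.01, 17.9 and 13.2 FPKM in P3, 25.9, 17.98 and 20.1 in P9 and 5.097, 1.08 and 2.18 in FFSS. These fell in FFSS by 1.88, 1.43 and 2.18 on the log2 scale (adjusted p = 0.00968, 0.0185 and 0.00441). Dlgap5, HURP, which stabilises kinetochore fibres, was at 11.8, 12.8 and 11.3 FPKM in P3, 19.02, 17.1 and 19.01 in P9 and 6.13, 1.05 and 2.31 in FFSS. Ckap2, a spindle microtubule protein, stood at 20.1, 25.8 and 19.6 FPKM in P3, 31.6, 35.8 and 39.7 in P9 and 8.395, 3.61 and 4.33 in FFSS. On the log2(FPKM + 1) scale Ckap2 had the largest fold change of the 59 in P9, 0.69 ± 0.25 (unadjusted p = 0.0219, adjusted p = 0.131, limma), and Dlgap5 the next, 0.58 ± 0.37 (adjusted p = 0.4). In mean FPKM, Kif14 stood highest, at 174.1% of P3, before Ckap2 at 163.7% and Dlgap5 at 153.6%. Ckap2 and Dlgap5 passed without FFSS replicate 1 (adjusted p = 0.0108 and 0.0492).

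Of the genes of chromosome structure and the chromosomal passenger complex, 11 of 11 fell in FFSS, and 4 of 11 had a fold change below 0 in P9, with none called. Mki67, the source of the Ki-67 antigen that coats mitotic chromosomes (Rnor_6.0 chromosome 1, 207993895 to 208020454, minus strand), was measured at 13.5, 13.7 and 12.4 FPKM in P3, 13.2, 12.3 and 12.6 in P9 and 5.88, 0.875 and 2.398 in FFSS. P3 and P9 libraries overlapped (log2 fold change -0.05 ± 0.38, adjusted p = 0.961) and the FFSS libraries lay apart (-2.01 ± 0.38, adjusted p = 0.00818). Top2a, topoisomerase II alpha, which untangles sister chromatids (Rnor_6.0 chromosome 10, 86901007 to 86932154, minus strand), was measured at 20.8, 21.9 and 19.2 FPKM in P3, 24.1, 19.4 and 20.9 in P9 and 9.37, 0.565 and 3.395 in FFSS. Its fall in FFSS was 2.38 ± 0.54 on the log2 scale (adjusted p = 0.0162), and the call was lost without P3 replicate 1 or 2 or FFSS replicate 3 (highest adjusted p = 0.0574).

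Condensin folds the chromosomes for mitosis. Of its core subunits, Smc2 was at 13.2, 14.8 and 12.5 FPKM in P3, 12.6, 10.5 and 11.9 in P9 and 6.11, 3.999 and 5.098 in FFSS. Smc4 stood at 15.7, 20.5 and 15.9 FPKM in P3, 14.5, 13.7 and 14.3 in P9 and 11.4, 8.999 and 10.2 in FFSS. Smc4 was the 1 gene of the 59 whose P9 libraries all lay below P3 (-0.27 ± 0.13, adjusted p = 0.28), and its FFSS change was -0.71 ± 0.13 (adjusted p = 0.00829), beside -1.27 ± 0.15 for Smc2 (adjusted p = 0.00134). The non-core subunits of condensin I were uneven in FFSS. Ncapg was at 7.13, 7.38 and 6.88 FPKM in P3, 8.51, 5.56 and 7.39 in P9 and 2.16, 0.205 and 0.804 in FFSS. Ncaph stood at 6.803, 7.21 and 6.57 FPKM in P3, 9.04, 9.49 and 9.47 in P9 and 4.84, 0.482 and 2.505 in FFSS. Ncapd2 was at 11.9, 12.3 and 12.4 FPKM in P3, 13.96, 12.5 and 12.8 in P9 and 7.89, 4.44 and 7.33 in FFSS. Their log2 fold changes in FFSS were -2.10 for Ncapg, -1.33 for Ncaph and -0.84 for Ncapd2 (adjusted p = 0.0033, 0.0439 and 0.0125), and Smc2 and Smc4 also serve condensin II, which works outside mitosis as well.

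The passenger complex brings Aurora B to centromeres and later to the midzone. Aurkb, the kinase, stood at 5.95, 6.88 and 5.75 FPKM in P3, 8.57, 7.09 and 7.601 in P9 and 4.48, 0.982 and 1.48 in FFSS. Birc5, survivin, was at 16.1, 23.8 and 18.6 FPKM in P3, 21.2, 27.3 and 25.7 in P9 and 9.27, 1.49 and 4.93 in FFSS. Cdca8, borealin, stood at 20.4, 20.8 and 21.4 FPKM in P3, 18.2, 28.7 and 29.8 in P9 and 10.2, 2.99 and 4.702 in FFSS. All 3 fell in FFSS, by 1.26, 1.93 and 1.79 on the log2 scale (adjusted p = 0.0251, 0.0148 and 0.00857), and Aurkb alone of the 3 had P9 libraries all above P3. Cdca2, also called Repo-Man, a phosphatase subunit that acts on chromosomes at mitotic exit, was at 4.37, 5.17 and 4.69999 FPKM in P3, 5.83, 6.42 and 5.99 in P9 and 1.98, 0.922 and 1.24 in FFSS, a change of -1.29 ± 0.17 in FFSS (adjusted p = 0.0022).

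Of the genes of the central spindle and cytokinesis, 8 of 8 fell in FFSS, with a median change of -1.94 on the log2(FPKM + 1) scale. Anln, anillin, the scaffold of the contractile ring, stood at 44.4, 51.7 and 39.7 FPKM in P3, 55.3, 45.5 and 51.6 in P9 and 14.6, 4.84 and 7.896 in FFSS. It had the second highest mean level of the list and a change of -2.30 ± 0.30 in FFSS (adjusted p = 0.00208) against 0.17 ± 0.30 in P9 (adjusted p = 0.804), where the groups overlapped. Prc1, which bundles the antiparallel microtubules of the midzone, was at 36.2, 39.4 and 33.2 FPKM in P3, 41.04, 42.8 and 44.7 in P9 and 16.03, 5.25 and 8.99 in FFSS. Kif20a, the midzone kinesin Mklp2, stood at 28.2, 31.8 and 28.9 FPKM in P3, 42.4, 39.4 and 38.4 in P9 and 13.3, 2.94 and 6.13 in FFSS. For both, all P9 libraries lay above all P3 libraries, and both fell in FFSS (-1.86 and -2.05, adjusted p = 0.00458 and 0.00731). Kif23, the kinesin of centralspindlin, was at 17.4, 18.6 and 13.9 FPKM in P3, 20.2, 17.9 and 19.5 in P9 and 6.25, 1.26 and 3.64 in FFSS. Racgap1, its partner in centralspindlin, stood at 6.97, 8.68 and 6.01 FPKM in P3, 7.87, 7.91 and 7.15 in P9 and 3.32, 0.397 and 1.304 in FFSS. Ect2, which activates RhoA at the cell equator under the control of that pair, was at 8.61, 10.3 and 9.29 FPKM in P3, 10.3, 10.04 and 11.03 in P9 and 4.12, 1.08 and 1.58 in FFSS. In FFSS, Kif23, Racgap1 and Ect2 changed by -2.05, -1.76 and -1.78 on the log2 scale (adjusted p = 0.00607, 0.00953 and 0.00464), and in P9 the libraries of all 3 overlapped P3.

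Kif14, which brings citron kinase to the midbody, was among the lowest of the list, at 1.44, 1.79 and 1.19 FPKM in P3, 3.05, 2.38 and 2.26 in P9 and 0.533, 0.0547 and 0.0804 in FFSS. Its FFSS values in replicates 2 and 3 rest on 4 and 6 fragments, and its mean FPKM there was 15.1% of P3, a larger fall than the log2 fold change of -1.03 shows. In P9 its mean stood at 174.1% of P3 (log2 fold change 0.53 ± 0.20, unadjusted p = 0.0290, adjusted p = 0.155, limma). Kif20b, a kinesin of the midzone and of abscission, stood at 5.64, 7.56 and 5.6996 FPKM in P3, 7.32, 4.73 and 6.26 in P9 and 1.72, 0.226 and 0.689 in FFSS, with mean levels of 14.0% of P3 in FFSS and 96.9% in P9. Kif20a overlaps Cdc23 on the opposite strand, by 1910 bases.

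In all, 11 of the 59 genes overlap another annotated gene, and Ccna2 does so over its whole span (Exosc9, opposite strand), so their values are uncertain where fragments were shared.

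The same test was read for other genes of mitosis that are not on the list, in 5 groups of 119 symbols, some of them older symbols of the same genes, of which 110 were found and tested. In FFSS, 56 of the 110 fell and 1 rose (background 10.4% and 11.4%), and in P9, 4 rose and 1 fell (background 5.39% and 4.44%). By group, 4 of 17 genes of the anaphase-promoting complex fell in FFSS, 9 of 17 other mitotic kinases and cofactors, 24 of 34 other checkpoint and kinetochore genes, 3 of 14 other condensin and cohesin genes and 16 of 28 other spindle, centrosome and cytokinesis genes. The anaphase-promoting complex and cohesin also work in cells that do not divide. Fbxo5, the inhibitor Emi1 of the complex, changed by -0.99 (adjusted p = 0.0218), beside -0.92 for Cdc23, -0.47 for Cdc27 and -0.62 for Fzr1, its other activator. Cdc23 overlaps Kif20a on the opposite strand, so its value is uncertain where fragments were shared. Ccnf, cyclin F, and Nek2, a centrosome kinase, changed by -1.68 and -2.02 (adjusted p = 0.00412 and 0.00882). Zwilch, of the complex that loads checkpoint proteins, and Mad2l1, the checkpoint protein Mad2, changed by -1.52 and -1.27 (adjusted p = 0.00116 and 0.00714). Aspm, a spindle pole protein, and Cep55, an abscission protein, changed by -1.29 and -2.06 (adjusted p = 0.00314 and 0.00433). The 1 that rose, Nek6, named after its values were seen, changed by 0.70 (adjusted p = 0.0379). In P9, Gtse1, Psrc1 and Haus4 rose by 0.86, 0.90 and 0.96 on the log2 scale and Cit, citron kinase, fell by 0.63 (adjusted p = 0.0122, 0.0165, 0.0185 and 0.0339). The remaining rise in P9 was that of Diaph3, a formin that builds actin filaments, by 0.97 (adjusted p = 0.0498), and it fell in FFSS by 1.58 (adjusted p = 0.00525).

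Among the regulators of this programme (16 tested genes of the MuvB complex and the E2F and RB families), 4 fell and 1 rose in FFSS (background 10.4% and 11.4%) and none passed in P9 (background 5.39% higher and 4.44% lower). E2f5, E2f7, Rbl1 and Lin54 fell by 0.92, 0.76, 0.63 and 0.72 on the log2 scale (adjusted p = 0.0155, 0.044, 0.0478 and 0.0486), and Tfdp2, a partner of E2F proteins, rose by 0.71 (adjusted p = 0.0167). Lin54, which binds the CHR motif, was named after its values were seen. Lin9, the core of MuvB, changed by -0.42 and Rbl2, p130 of the repressing form of the complex, by 0.24, and neither passed (adjusted p = 0.128 and 0.243). Of 38 tested genes of DNA replication and G1/S, 13 fell in FFSS and none rose (background 10.4% and 11.4%), and 1, Ccnd1, rose in P9 (background 5.39%). Ccnd1, cyclin D1, stood at 135, 128 and 141 FPKM in P3, 199.8, 219 and 252 in P9 and 48.8, 55.6 and 51.8 in FFSS, a change of -1.35 in FFSS (adjusted p = 0.000361) and 0.72 in P9 (adjusted p = 0.00465). Ccne1, cyclin E1, Ccnd2, cyclin D2, and Orc1, of the origin recognition complex, fell in FFSS by 0.86, 1.25 and 0.88 on the log2 scale (adjusted p = 0.00516, 0.006 and 0.00809).

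Of the 7 tested inhibitors of cyclin-dependent kinases, 2 rose and 2 fell in FFSS (background 11.4% and 10.4%), and 1 rose in P9 (background 5.39%). Cdkn1a, the gene of p21, stood at 79.7, 96.7 and 64.4 FPKM in P3, 115, 139 and 151 in P9 and 67.2, 284 and 202 in FFSS. In FFSS its replicate 2, where the mitotic genes were lowest, was the highest of the 9 libraries, and replicate 1 lay among the P3 libraries. The change in FFSS was 0.98 ± 0.45 and did not pass (adjusted p = 0.144). Cdkn1c, the gene of p57, rose in FFSS by 1.66 (adjusted p = 0.00793) and Cdkn1b, of p27, by 0.41 (adjusted p = 0.0455). Cdkn2b, of p15, fell by 0.80 (adjusted p = 0.0117). Cdkn2a, of p16, stood at 6.65, 7.77 and 6.22 FPKM in P3, 12.7, 13.8 and 12.4 in P9 and 2.85, 5.25 and 5.66 in FFSS, and rose in P9 (adjusted p = 0.0337). Cdkn3, a phosphatase that acts on Cdk1 and is itself made in dividing cells, fell in FFSS by 1.75 (adjusted p = 0.0129).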

How the data were processed

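RNA of 9 libraries was sequenced after poly-A selection. Per the submitters' processing notes, reads were aligned with HISAT2 2.0.5 to Rnor_6.0 and counted with featureCounts 1.5.0-p3; the counting strand is not given in the sources used here. The unit of the deposited table is not given in the sources used here and was read from its values as FPKM, the authors' fragment counts scaled to gene length and library depth: each value times gene length is a whole multiple of 1 step per library (tolerance 0.01), from which fragments were recovered.

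Genes reaching 1 FPKM in 3 or more libraries were tested with limma 3.58.1 (R 4.3.3, empirical Bayes with trend, 6 residual degrees of freedom) on log2(FPKM + 1), with Benjamini-Hochberg adjustment over the 13059 genes and a threshold of 0.05; the script was tested on simulated data. Values of every library are given for each gene called in any contrast, for the 3 genes with the highest mean and for 9 genes always; other pathway genes are up to 4 called per list with the smallest adjusted p, plus 7 regulators. Members and lists were chosen with earlier results of these data known. Alternatives were other pseudocounts, filters and scalings, voom on recovered fragments, a replicate block, the compared groups alone and leaving out each library.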

Additional observations from a re-analysis of the deposited data

Results flagged for a closer look

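The effects of the models on the mitotic genes, each measured against the same P3 libraries, differed by the direct test of P9 against FFSS. That test (limma, adjusted p under 0.05) called 58 of the 59 genes, all higher in P9 (background 16.1% higher and 15.3% lower). For the genes given in every case, the log2 fold change of P9 against FFSS was 1.96 for Mki67, 2.43 for Top2a, 2.64 for Ccnb1, 2.14 for Cdk1, 1.70 for Foxm1, 2.75 for Cdc20, 1.91 for Ndc80 and 2.47 for Anln. Every P9 library lay above every FFSS library for each of these 8 genes (background 22.2%). With 3 libraries per group, single libraries were not screened for outliers.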

How the results depend on the processing

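The direction of the fall in FFSS and of the difference between P9 and FFSS was the same in every alternative in which a gene was tested (54 of the 59 genes under the filter of 5 FPKM, all 59 otherwise). Called lower in FFSS were 54 genes, and 49 with a pseudocount of 0.1, 45 with no filter, 43 with both, 41 with only the P3 and FFSS libraries fitted, 53 with library totals, 54 with voom, 50 with a log2 fold change of at least 1 as well and 38 to 58 with 1 library left out; of the 54, 38 genes kept the call in every other fit and 16 lost it in at least 1, and the cause was not tested. The fold minimum, not counted there, also removed Kif15, Kif18a, Ncapd2 and Smc4. The median change in FFSS was -2.14 with a pseudocount of 0.1, -2.21 with voom and -2.05 to -1.24 with 1 library left out. Called higher in P9 against P3 were 0 genes, but 14 with only those 2 groups and 4 without FFSS replicate 1. Leaving out other libraries gave 0, so the range was 0 to 4. The median change was 0.24 in the main fit, with only those 2 groups and without FFSS replicate 1. These fits differ in the FFSS libraries that enter the spread and in the genes tested. The median change in P9 was 0.29 with library totals and 0.20 to 0.29 with 1 library left out. In P9 against FFSS, 53 to 59 genes were called with 1 library left out, and the median was 2.42 with a pseudocount of 0.1, with or without the filter, 1.90 with a filter of 5 FPKM, 2.52 with voom and 1.497 to 2.25 with 1 library left out; a smaller pseudocount raises fold changes of low genes. The summed level was 649 FPKM in P3 and 787 in P9 without the 3 highest genes (Cdk1, Anln and Prc1). TTTGAA was in 46.2% of promoters in the 250 bases before the start. Deviations of same-numbered libraries correlated at -0.041 to 0.033, so the numbers were not taken to pair the libraries; with the replicate number as a block, 52 genes were called lower in FFSS, 56 higher in P9 against FFSS and 0 in P9 against P3. The precision of the lowest values is limited by few fragments, as for Kif14 with 4 in FFSS replicate 2, a library of 15189958 fragments, against 88 to 124 in P3.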
